A study of Mus musculus with 2 samples.

Results

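Collagens, laminins and the proteins that sit among them form the extracellular matrix, and their genes were followed here in single cells from mouse mammary gland and from mammary tumor. Genes were chosen by name alone: every measured collagen chain gene (symbols of the form Col3a1), laminin chain gene (Lamc1) and fibulin gene (Fbln2), together with Fn1, Sparc, Dcn, Lum, Bgn, Nid1, Nid2, Postn, Dpt and Mgp. The rule found 47 of the 13774 genes in the deposited count table. They comprise 9 fibrillar collagens, 2 basement membrane collagens, 5 beaded filament collagens, 5 fibril-associated collagens, 2 multiplexins, 3 other collagens, 8 laminin chains, 2 nidogens, 3 fibulins, 3 small leucine-rich proteoglycans and 5 matricellular or adhesive glycoproteins.

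Both libraries came from female C57BL6/J mice, 8 weeks old, of the genotype Cdh5Cre-ERT2:ZSGreenl/s/l, in which tamoxifen switches on the green protein ZSGreen through a Cre driven by the promoter of the endothelial gene Cdh5. The labels describe an injection of 1000000 cells of EO771, a mouse mammary tumor line syngeneic to C57BL6, into the mammary fat pad, and about 3 weeks of growth. NEC (labelled normal endothelial cells) came from normal counterpart mammary glands and TEC (labelled tumor endothelial cells) from the tumors. The labels describe a sort of live ZSGreen+ cells from each tissue after digestion with collagenase, dispase and DNase. The name of the deposited count table, however, holds the word negs, which the labels do not explain, and whether its cells are the ZSGreen+ fraction is not settled here. Its columns start with control or tumor; tumor was read as TEC and control as NEC, the latter from the word alone, and every NEC and TEC value below rests on that reading. There is 1 library in each group and the labels give no number of mice, so no comparison has a replicate check, and tissue and library cannot be told apart. Intervals below are 95% intervals that cover counting error only.

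Fibrillar collagens are built from 3 chains wound into a triple helix and give connective tissue its tensile strength. The chains α1(I) and α2(I), from Col1a1 and Col1a2, normally assemble with each other, whereas Col3a1 encodes the only chain of type III collagen. Basement membranes, the thin sheets under epithelium and around vessels, rest on networks of type IV collagen and of laminins, which are trimers of an α, a β and a γ chain, and nidogens link both networks. Decorin, lumican and biglycan (Dcn, Lum, Bgn) are small proteoglycans that bind collagen fibrils, and fibronectin (Fn1) is an adhesive glycoprotein that integrins bind. Fibroblasts are known as the main makers of this matrix in the mammary stroma.

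Promoter sequence was looked up for a pair of genes that differed within the Rhox5-led cells of the tumor library, described below. Those cells contained Col3a1 and had no transcript of Postn. The lines below give the 150 bases upstream of the start site, 5′ to 3′, from the RefSeq promoter table (GRCm38.p6), which holds 33 of the 47 genes; Postn has 2 start sites there and the second is shown. Capitals mark the motif TATAAA, which was searched on both strands (TATAAA or TTTATA).
Col3a1, chr1:45311388-45311537, + strand: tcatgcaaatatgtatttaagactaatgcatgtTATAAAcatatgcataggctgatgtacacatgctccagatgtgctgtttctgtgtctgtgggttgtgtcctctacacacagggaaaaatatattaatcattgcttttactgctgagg
Postn, chr3:54360957-54361106, + strand: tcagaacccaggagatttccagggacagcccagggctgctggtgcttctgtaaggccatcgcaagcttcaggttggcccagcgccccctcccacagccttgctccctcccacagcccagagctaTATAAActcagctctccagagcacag
The motif starts 26 bases before the start site in Postn and 117 bases before it in Col3a1. The same letters occur in 7.57% of the 32851 windows of this length in the table, and a match is a description of the sequence only.

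The labels name both libraries endothelial, and the counts did not bear that out. Clustering without the matrix genes gave 18 clusters, and the 1 cluster that its markers named endothelial held 9 cells, 3 of 1794 in NEC and 6 of 997 in TEC. Most other clusters were led by genes of lymphocytes or macrophages. Cells are therefore called by cluster: NEC fibroblast-like cells (73, called fibroblasts below), the TEC cluster with the highest level of Rhox5, a homeobox gene known from the reproductive tract (199 cells), and macrophage or monocyte-like cells (203 in NEC and 516 in TEC, called macrophages). Median depth was 2745 UMIs per cell in the fibroblasts, 40004 in the Rhox5-led cells, 3204 in NEC macrophages and 7482 in TEC macrophages, and 2 cell barcodes occurred in both libraries. The fibroblasts held 13 of 14 fibroblast markers and no UMI of Ptprc, Pecam1 or Cdh5, while markers of B or plasma cells summed to 782 CPM, the counts per 1000000 UMIs of the class. Other markers were present too: macrophage markers summed to 617 CPM (7 of 16 present) and T or NK markers to 191 CPM (7 of 12). Endothelial markers summed to 117 CPM (2 of 12) and general leukocyte markers, Ptprc among them, to 30.4 CPM (3 of 5). The Rhox5-led cells held Rhox5 in 194 of 199 cells at 644 CPM and 12 of 14 fibroblast markers that summed to 663 CPM, against 37237 CPM in the fibroblasts. In the Rhox5-led cells Ptprc stood at 8.15 CPM, and the general leukocyte markers summed to 134 CPM with 5 of 5 present. Epithelial markers summed to 147 CPM, nearly all from the keratin Krt8 at 146 CPM, and only 3 of 9 were present. Krt18, Krt19, Cldn3, Cldn4, Cldn7 and Elf5 had no UMI in this class. Endothelial markers stood at 37.9 CPM (8 of 12 present) and macrophage markers at 259 CPM. Whether these cells are EO771 cells was not tested.

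Matrix transcripts took a larger share of the RNA in fibroblasts than in any other compared class. The 47 genes held 6736 of 230068 UMIs in NEC fibroblasts, a share of 2.93% (2.86 to 2.998), and all 73 cells contained at least 1 of them. Per fibroblast the share ran from 0.843% through a median of 2.62% to 8.74%. In the Rhox5-led cells the share was 0.154% (0.151 to 0.157), with cells between 0 and 0.479% around a median of 0.139%, so that no Rhox5-led cell reached the lowest fibroblast. NEC macrophages had 0.159% (0.151 to 0.168), close to the Rhox5-led cells, but Fn1 alone made up that share: without it 0.00366% remained. TEC macrophages had 0.0191% (0.0178 to 0.0204), which also was mostly Fn1.

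**Figure D1:**
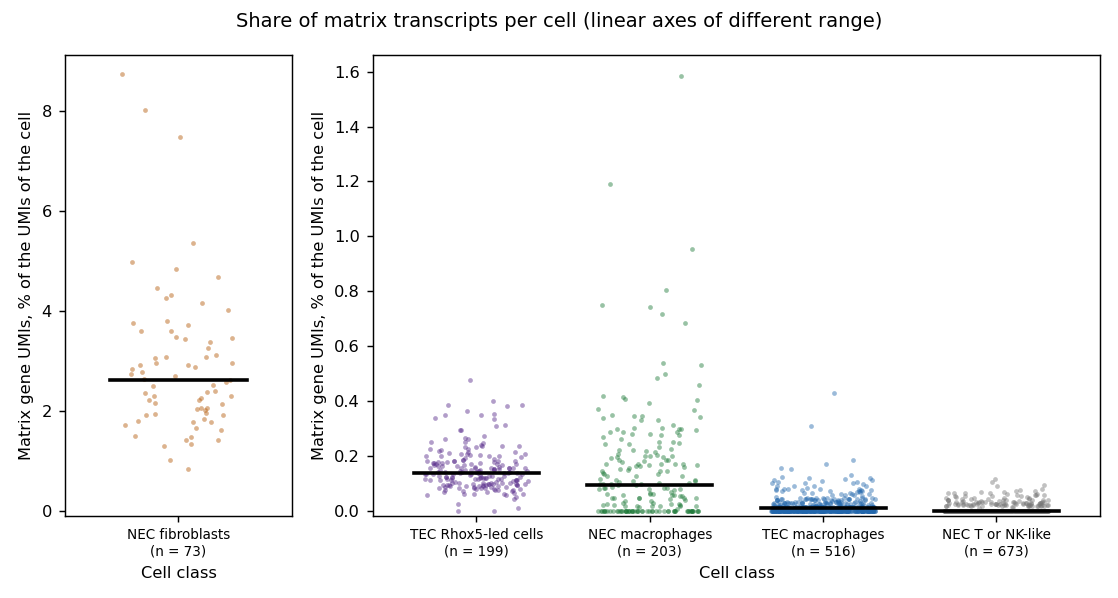
Share of a cell's UMIs that came from the 47 matrix genes (vertical, percent, linear axes of different range) in NEC fibroblasts on the left and in TEC Rhox5-led cells, NEC macrophages, TEC macrophages and NEC T or NK-like cells on the right; each point is a cell and black bars mark class medians. Fibroblasts lie between 0.843% and 8.74%, above every Rhox5-led cell, and NEC macrophages spread from 0 to 1.58%.

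The number of different matrix genes per cell differed less than the share. A fibroblast contained a median of 16 of the 47 genes and a Rhox5-led cell 14, whereas macrophages of either library contained 1. Depth moves such counts, and the Rhox5-led cells were the deepest class. After every cell was thinned to 1000 UMIs, with 0 cells left out, any matrix gene was seen in 100% of fibroblasts, 73.9% of Rhox5-led cells, 51.2% of NEC macrophages and 14.5% of TEC macrophages; without thinning the share of Rhox5-led cells was 99.0%. T or NK-like cells of TEC showed 8.42% after thinning. That class also held macrophage markers at 4075 CPM (16 of 16 present), beside T or NK markers at 3513 CPM. It is therefore a mixed background and not a clean one.

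NEC fibroblasts carried the profile of interstitial connective tissue. Small leucine-rich proteoglycans were the largest group with 31.1% of the matrix UMIs, ahead of matricellular and adhesive glycoproteins with 26.0% and fibrillar collagens with 23.8%; basement membrane collagens gave 0.638%. Because each transcript is counted once at its 3′ end, these levels are not scaled by transcript length and are compared between genes only as counts of tags.

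Among the proteoglycans, Dcn (decorin; chr10:97479609-97518143 in GRCm38) stood at 8098 CPM (7734 to 8474) and was present in 73 of 73 fibroblasts. Single cells ranged from 1389 through a median of 6701 to 57914 CPM, so even the lowest fibroblast was far above the class levels of the Rhox5-led cells and of both macrophage classes. Lum (lumican) reached 722 CPM in 43 cells and Bgn (biglycan) 274 CPM in 21.

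The type I and type III chains stood at levels near one another. Col3a1 (chr1:45311538-45349706) was measured at 2412 CPM (2216 to 2622) in 59 cells, Col1a2 (chr6:4504814-4541544) at 2021 CPM in 62 and Col1a1 (chr11:94936224-94953042) at 1839 CPM in 52. Single cells weighed on these sums: the top cell gave 23.8% of the Col3a1 UMIs and 23.4% of the Col1a1 UMIs, and without it Col3a1 was 1885 CPM. Per UMI of Col3a1 the fibroblasts had 0.762 of Col1a1 (0.670 to 0.867) and 0.838 of Col1a2 (0.739 to 0.949). Minor fibrillar chains of type V, which copolymerise with type I, were lower: Col5a2 stood at 291 CPM, and Col5a1 and Col5a3 both at 191 CPM.

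Of the remaining groups, adhesive and matricellular glycoproteins were led by Fn1 at 3442 CPM (3207 to 3691; 57 cells), Sparc, a collagen-binding protein, at 1743 CPM (66 cells) and Dpt (dermatopontin) at 1729.9 CPM (67 cells). Single fibroblasts ran from 0 through 1948 to 22279 CPM for Fn1 and from 0 through 1253 to 7005 CPM for Sparc. Postn, encoding periostin, was uneven: its 669 CPM came from 28 of 73 cells. Col6a1, Col6a2 and Col6a3, the chains of the classical type VI trimer that forms beaded filaments, stood at 678, 435 and 269 CPM. Col14a1, a fibril-associated collagen, reached 965 CPM in 56 cells, ahead of Col12a1 at 99.97 and Col16a1 at 43.5 CPM. The fibulins, which bind elastic fibers and basement membranes, stood at 296 CPM (Fbln2), 183 CPM (Fbln5) and 69.5 CPM (Fbln1). Col6a5, Mgp, Col27a1, Col6a6 and Lamb3 lay between 4.35 and 56.5 CPM.

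Basement membrane genes were not all low in fibroblasts. Nid1 (nidogen 1) stood at 1308 CPM in 63 cells, with single cells from 0 through 1182 to 4082 CPM, whereas Nid2 had 3 UMIs (13.0 CPM). Of the laminin chains Lamc1 (γ1) stood at 278 CPM, Lama2 (α2) at 191, Lamb1 (β1) at 178, Lamb2 (β2) at 143 and Lama4 (α4) at 109. Col4a1 was measured at 135 CPM (91.6 to 191) in 19 cells and Col4a2, its partner in the common type IV trimer, at 52.2 CPM (27.0 to 91.1) in 10. Col4a1 (chr8:11198423-11312826, minus strand) and Col4a2 (chr8:11312805-11449287, plus strand) lie head to head and share 22 annotated bases at their starts. Col18a1, whose C-terminal fragment is endostatin, had 6 UMIs in 6 cells (26.1 CPM, 9.57 to 56.8). A further 9 genes are listed at 0 throughout NEC and have no level in these fibroblasts: Col2a1, Col7a1, Col8a1, Col9a1, Col9a3, Col11a2, Col15a1, Col17a1 and Lama5.

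**Figure D2:**
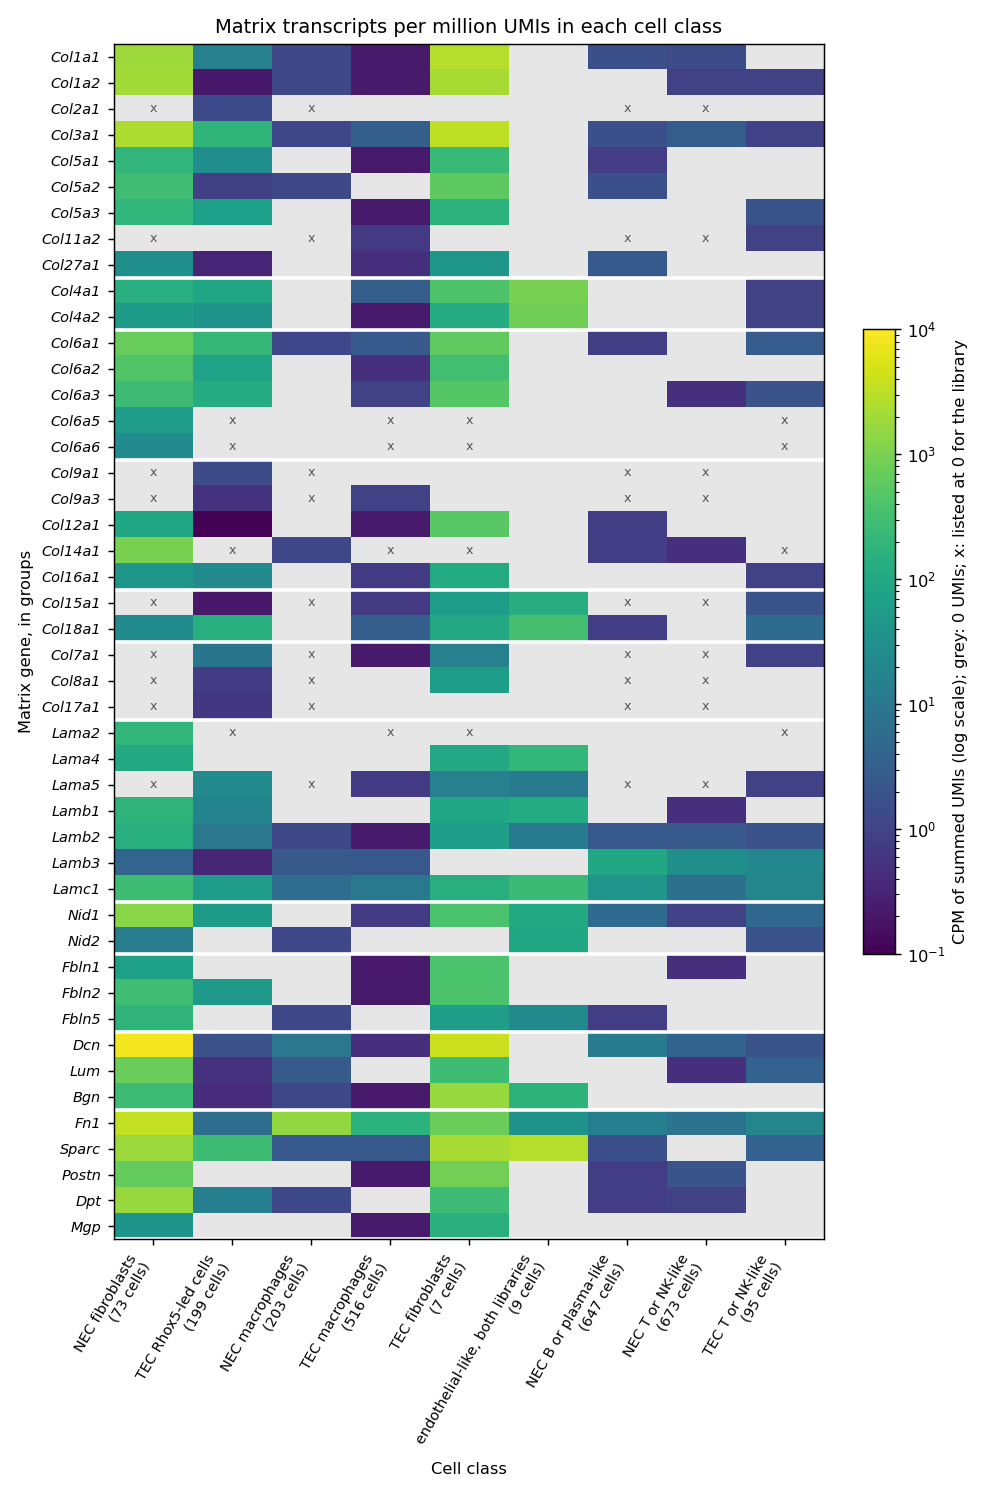
Level of the matrix genes (rows, white lines between groups) in 9 cell classes (columns, with their cell numbers), as CPM of summed UMIs on a log color scale; grey marks 0 UMIs and x a gene listed at 0 for the library. Fibroblasts are high in most groups. Within the Rhox5-led column Sparc, Col6a1, Col3a1, Col18a1, Col6a3 and Col4a1 are highest, and of these only Col18a1 is above the NEC fibroblasts. That column is near 0 in the Dcn, Lum and Bgn rows, and macrophages show Fn1 with little else.

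Against macrophages of the same library, 18 matrix genes had enough UMIs to be judged, and 18 were higher in fibroblasts and 0 lower. A gene was counted as higher or lower when it differed by at least 2-fold with an interval that excluded 1, and only genes with at least 50 UMIs over both classes were judged. Over all 2148 genes judged 19.2% were higher and 25.8% lower. The fibroblasts' own counts carried these members past the minimum, so the count is a description and adds no support. The other 29 genes either fell below the minimum or were listed at 0 in NEC.

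Fold differences varied widely among the 18 genes. Dcn was 831-fold higher (421 to 1927) in fibroblasts, Sparc 715-fold and Col6a1 556-fold, while Nid1, with no UMI in NEC macrophages, was at least 358-fold higher against a floor of 3 counts. Col3a1, Col1a2 and Col1a1 had 1 UMI each in 203 macrophages. Lamc1 stood lower on this scale at 45.7-fold, and Fn1 was lowest with 2.22-fold (2.03 to 2.42). The Fn1 call was lost when libraries were scaled by trimmed means or by median ratios, both of which gave 1.55-fold. These scalings moved the median of all genes by -0.52 and -0.51 on the log2 scale and the share of calls that were higher from 42.6% to 25.8% and 25.9%.

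In NEC macrophages the members with high fibroblast levels stood at small fractions of those levels. Relative to fibroblasts macrophages had 0.120% of Dcn, 0.140% of Sparc, 0.180% of Col6a1 and 0.0505% of Col3a1, next to 0.0613% for the fibroblast marker Clec3b, which was not among the matrix genes. T or NK-like cells of the library had 0.0485% of Dcn. Fractions of other members differed, since many rest on 0 to 2 macrophage UMIs. Lamc1 stood at 2.19% and Fn1 at 45.1% in macrophages, and in T or NK-like cells Lamc1 reached 2.47% and Fn1 0.228%. Lamc1 was higher in B or plasma-like cells of NEC, at 39.9 CPM in 42 of 647 cells, against 278 CPM in fibroblasts. The part of free RNA in the low values was not tested.

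The Rhox5-led cells of TEC had a narrower set of matrix transcripts with another order. Sparc was highest at 282 CPM (272 to 293), present in 186 of 199 cells, and ran from 0 through a median of 235 to 1279 CPM in single cells. Col6a1 (chr10:76708792-76726168) followed at 218 CPM (209 to 228; 188 cells), with single cells from 0 through 193 to 874 CPM. Col3a1 stood at 185 CPM (176 to 194; 177 cells), single cells from 0 through 135 to 1272 CPM. Thus the most abundant members were broadly spread over cells and did not rest on a few of them.

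Type VI collagen made up the largest group here, 27.2% of the matrix UMIs against 5.003% in fibroblasts, with Col6a3 at 126 CPM and Col6a2 at 75.2 CPM. Col18a1 (chr10:77052178-77166548) reached 135.2 CPM (128 to 143) in 181 cells, with a single-cell median of 112 CPM and a maximum of 598 CPM. It lies 326.0 kb from Col6a1 on the same strand, and overlaps Slc19a1 on the other. Col4a1 stood at 91.2 CPM (85.1 to 97.6) in 176 cells and Col4a2 at 39.6 CPM in 144. Among laminin chains Lamc1 (58.9 CPM, 157 cells) was followed by Lama5 (24.8 CPM, 117 cells), Lamb1 (17.8 CPM) and Lamb2 (9.78 CPM); Lama5, the α5 chain typical of epithelial and vascular basement membranes, was listed at 0 in all of NEC. Nid1 stood at 52.8 CPM, Fbln2 at 48.5 CPM and Col7a1, which forms anchoring fibrils under epithelia, at 8.69 CPM in 60 cells. The type V chains Col5a3 and Col5a1 stood at 66.3 and 28.1 CPM, Col16a1 at 23.4 CPM and Dpt at 14.1 CPM.

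Several genes that define the fibroblast profile were close to absent from Rhox5-led cells. Dcn had 16 UMIs in 10 cells (1.74 CPM), Lum 5 UMIs in 1 cell, Bgn 4 UMIs and Col1a2 2 UMIs in 2 cells, out of 9201175 UMIs. Postn, Fbln1, Fbln5, Lama4, Mgp, Nid2 and Col11a2 had none in this class, and Col14a1, Lama2, Col6a5 and Col6a6 were listed at 0 throughout TEC. Col1a1 remained measurable at 15.3 CPM, from 27 cells of which 1 gave 22.0% of the UMIs. A further 9 collagens (Col2a1, Col5a2, Col8a1, Col9a1, Col9a3, Col12a1, Col15a1, Col17a1 and Col27a1) lay at or below 1.41 CPM, as did Lamb3 at 0.326 CPM.

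Within TEC, Rhox5-led cells were higher than macrophages in 20 of 21 judged matrix genes and lower in 1, beside 35.4% higher and 18.4% lower of 9421 genes. Here too most members passed the minimum through the class in which they were high. The fold was 111 (62.0 to 223) for Sparc, 85.8 (47.8 to 172) for Col6a1, 137 (53.3 to 503) for Col6a3, 57.2 (34.0 to 105) for Col3a1, 41.8 (24.8 to 76.7) for Col18a1 and 30.4 (17.7 to 57.3) for Col4a1. Lamc1 was only 5.80-fold higher (4.26 to 8.07). Fn1 was the exception, 25.3-fold lower (19.3 to 33.9) at 6.09 CPM against 154 CPM in macrophages.

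The low matrix levels of TEC macrophages were set beside their level of Rhox5, which is no matrix gene. They had 1.33% of the Rhox5 level found in Rhox5-led cells, 0.900% of Sparc, 1.17% of Col6a1, 1.31% of Nid1 and 1.75% of Col3a1, and 2.39% of Col18a1 and 3.29% of Col4a1. Lamc1 stood apart at 17.2%, and at 31.6% in T or NK-like cells of the library, which also held macrophage markers. The part of free RNA in these values was not tested. In the other direction Rhox5-led cells had 138 CPM of the macrophage gene Lyz2, against 9003 CPM in macrophages.

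A direct comparison of the Rhox5-led cells with NEC fibroblasts crosses the libraries, so cell type, tissue and library cannot be told apart in it. Of the 47 genes 13 are listed at 0 in one library and have no ratio, and 9 fell below the minimum. Of the 25 judged, 21 were lower in Rhox5-led cells, 1 was higher and 3 were neither; over all 8174 genes 13.3% were lower and 20.1% higher. The median log2 ratio of the 25 was -3.32, against 0.30 for all genes. Members such as Postn, Lum, Bgn, Col5a2 and Col1a2 passed the minimum through the fibroblasts, where they are high, so this count and median are descriptions and add no support.

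Of the groups with judged members, all but the basement membrane collagens, the multiplexins and the fibril-associated collagens held members that were lower. All 3 proteoglycans were lower, Dcn 4657-fold (2860 to 8164), Lum 1328-fold and Bgn 629.9-fold. All 6 judged fibrillar collagens were lower, but by very different amounts: Col1a2 9298-fold (2559.7 to 77008, from 2 UMIs), Col5a2 335-fold, Col1a1 120.0-fold (98.9 to 146), Col3a1 13.0-fold (11.8 to 14.4), Col5a1 6.79-fold and Col5a3 2.88-fold. Type VI chains were nearer, with Col6a2 5.78-fold, Col6a1 3.11-fold (2.63 to 3.66) and Col6a3 2.13-fold (1.62 to 2.76) lower. The Col6a3 call was lost with the mean of per-cell levels (ratio 0.531) and without the top cell (ratio 0.605). The glycoproteins Sparc and Dpt were 6.18-fold (5.55 to 6.86) and 122-fold lower, Fn1 was 566-fold lower, and Postn, with 0 UMIs, at least 2053-fold.

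Basement membrane genes varied in how far apart they stood. Col4a1 had a ratio of 0.677 (0.473 to 1.002) and Col4a2 of 0.758 (0.429 to 1.48), so neither difference was resolved at this depth; 31 and 12 fibroblast UMIs stood behind them. Lamc1 was 4.72-fold lower, Lamb1 10.00-fold, Lamb2 14.7-fold and Nid1 24.8-fold. Col18a1 was the gene that went the other way, 5.18-fold higher (2.38 to 14.2) in Rhox5-led cells, with 6 fibroblast UMIs. Col16a1, a fibril-associated collagen, had a ratio of 0.538 (0.287 to 1.14).

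Because Rhox5-led cells were far deeper, shares of positive cells were compared after thinning to 1000 UMIs. Col18a1 was then seen in 14.1% of Rhox5-led cells and 1.37% of fibroblasts, unthinned in 181 of 199 and 6 of 73. Sparc was seen in 22.1% and 63.0%, Col6a1 in 22.1% and 39.7%, Col3a1 in 16.1% and 57.5%, Nid1 in 6.03% and 64.4%, and Col4a1 in 7.54% and 12.3%. Dcn and Col1a2 were seen in 0 of 199 thinned Rhox5-led cells, against 100% and 67.1% of fibroblasts. Of the genes thinned, Col18a1 was the one seen in a larger share of Rhox5-led cells than of fibroblasts.

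**Figure D3:**
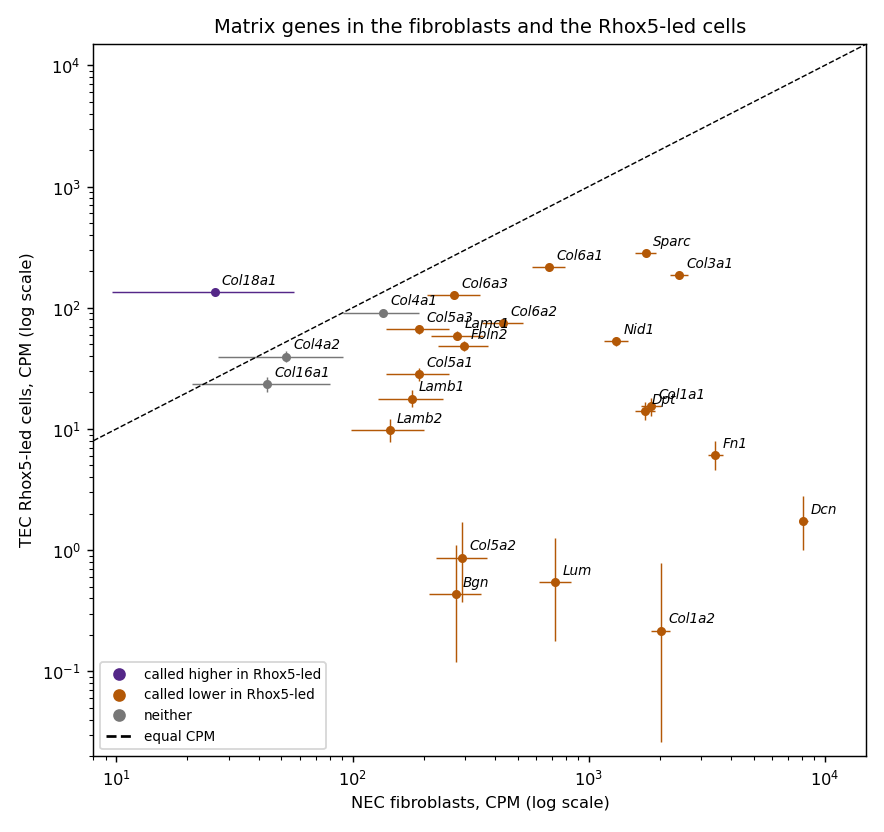
Level of matrix genes in TEC Rhox5-led cells (vertical) against NEC fibroblasts (horizontal), both in CPM on log axes; points are the judged genes with a UMI in both classes, bars are exact Poisson 95% intervals, color gives the call and the dashed line marks equal levels. Col18a1 lies above the line, Col4a1 and Col4a2 close to it, and Dcn, Col1a2 and Lum far below.

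Ratios between chains within a class need no scaling between libraries and differed where chains normally pair. Rhox5-led cells had 70.5 UMIs of Col1a1 per UMI of Col1a2 (19.2 to 588), fibroblasts 0.910 (0.796 to 1.04) and the 7 fibroblast-like cells of the same tumor library 1.24 (0.991 to 1.55). Per UMI of Col3a1 they had 0.0829 of Col1a1 (0.0693 to 0.0985) and 0.00118 of Col1a2. In type V the ratio of Col5a1 to Col5a2 was 32.4 (16.2 to 75.8), against 0.657 (0.438 to 0.975) in fibroblasts. For the type IV pair the intervals overlapped, with 2.30 UMIs of Col4a1 per UMI of Col4a2 (2.04 to 2.61) in Rhox5-led cells and 2.58 (1.29 to 5.52) in fibroblasts. For type VI, Col6a1 per Col6a2 was 2.90 (2.66 to 3.16) and 1.56 (1.21 to 2.03). Both chains of a pair are counted at their 3′ ends, so each ratio also holds the capture of each end.

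Macrophages expressed 1 matrix gene at a high level, Fn1 (chr1:71585520-71653200), and it was lower in the tumor library. NEC macrophages had 1554 CPM (1469 to 1641), with 140 of 203 cells positive, and single cells ran from 0 through a median of 876 to 15829 CPM. TEC macrophages had 154 CPM (143 to 166), with 186 of 516 cells positive, and single cells ran from 0 through a median of 0 to 4289 CPM. The ranges of cells overlapped widely, since both classes hold cells without a UMI. The class level was 10.1-fold lower (9.16 to 11.1) in TEC, a log2 ratio of -3.33, against 0.47 for the median of all genes. It was the only member judged, and was among the 7.33% of 6083 genes that were lower, while 28.4% were higher.

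Median depth was 3204 UMIs in NEC and 7482 UMIs in TEC macrophages. Thinned to 1000 UMIs, Fn1 was seen in 48.8% of NEC and 11.6% of TEC macrophages, and in 1.55% of B or plasma-like cells of NEC (median depth 1733 UMIs). Scaling by trimmed means or median ratios gave ratios of 0.0820 and 0.0806 in place of 0.0993, and moved the median of all genes by -0.28 and -0.30 on the log2 scale; the split of all calls changed from 79.5% higher to 63.9% and 62.1%. With the calls of the doublet detector kept in, fewer TEC clusters could be named and the ratio was 0.0310. The 3′ tag does not tell Fn1 splice forms apart, and Apol7d overlaps Fn1 on the other strand; no source used here says whether strand entered the counting.

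The macrophage class is not the same set of clusters in both libraries. NEC macrophages came from clusters 5 (105 cells), 10 (71), 6 (19) and 7 (8), and TEC macrophages from clusters 7 (418), 8 (96) and 5 (2). In NEC, Fn1 was highest in cluster 6, led by Ltc4s, Saa3, Prg4 and Vsig4, at 5655 CPM (5037 to 6328) in 18 of 19 cells, which is 1.64 times (1.43 to 1.88) the fibroblast level. Cluster 5, led by Lyz1, Fcrls and Retnla, followed at 1696 CPM (1582 to 1816) in 88 of 105 cells. It gave 64.8% of the Fn1 UMIs of NEC macrophages. Its name rests on the minimum of 3 macrophage markers (Adgre1, Lyz2 and Ccr2), with 2 dendritic markers beside them. Cluster 10, with Cd209f, Folr2 and Lyve1, had 435 CPM (356 to 528) in 27 of 71 cells. Fn1 thus differed widely among NEC macrophage clusters, with intervals that do not overlap.

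In TEC, cluster 7, led by Arg1, Ccl8 and Mmp12, had 174 CPM (160 to 188) in 160 of 418 cells, and cluster 8, led by interferon-induced Ifit genes, 63.4 CPM (47.1 to 83.6) in 24 of 96. Cluster 7 allows a comparison inside a cluster, where NEC exceeded TEC by 5.75-fold (4.09 to 7.90) with 8 NEC cells at 999 CPM. An unnamed cluster held both libraries too. It was led by the neutrophil markers Retnlg, S100a9 and S100a8, with Ace and Treml4 also among its leading genes. There NEC exceeded TEC by 3.01-fold (1.94 to 4.84), with 296 and 98.4 CPM, and whether its makeup differed between the libraries was not tested. Left out in turn, clusters 5, 6, 8 and 10 gave class ratios between 0.0766 and 0.122; without cluster 7 the ratio was 0.0438. The part of cluster makeup in the difference was not tested beyond these values.

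**Figure D4:**
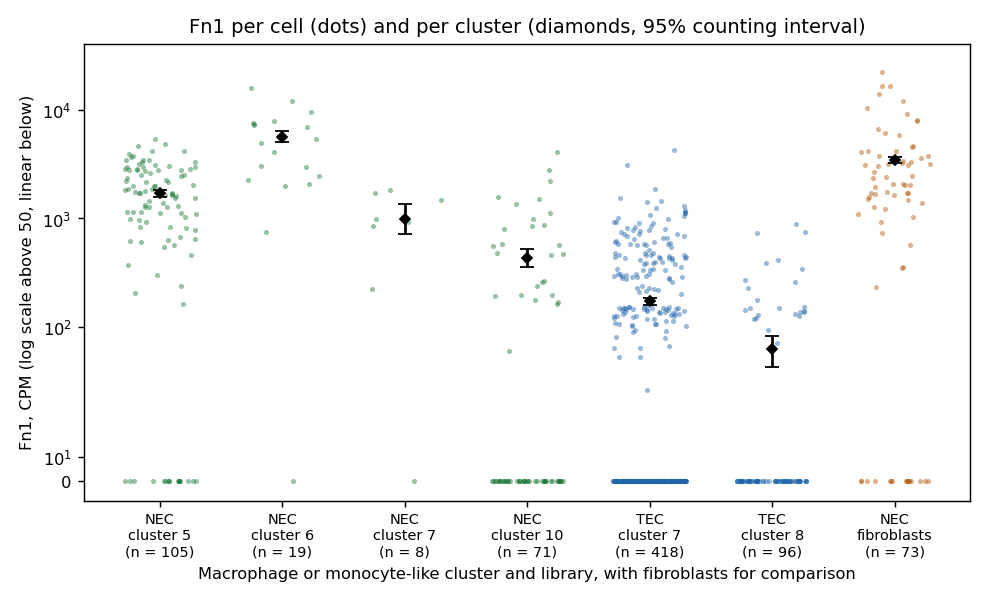
Fn1 in CPM (vertical, log scale above 50 and linear below) per cell (dots) and per macrophage cluster and library (diamonds with exact Poisson 95% intervals), with NEC fibroblasts on the right. NEC cluster levels lie between 435 and 5655 CPM and TEC clusters 7 and 8 at 174 and 63.4 CPM; many cells of each macrophage library have 0.

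Beyond Fn1 macrophages held few matrix transcripts, 36.6 CPM in NEC and 36.7 CPM in TEC for the other genes together. In NEC Dcn had 8 UMIs and Lamc1 5, and no other gene had more than 2. In TEC Lamc1 had 44 UMIs in 41 cells (10.2 CPM), Col3a1 and Col18a1 14 each, Col4a1 13, Col6a1 and Sparc 11 each and Lamb3 10. None of these reached the minimum of 50 UMIs, so no direction is given between the libraries.

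Lists of other genes of the matrix pathway were read beside the members. Of the genes for folding and modifying collagen in the endoplasmic reticulum, 15 were judged between Rhox5-led cells and fibroblasts; 3 were higher, 1 lower and 11 neither, beside 20.1% higher and 13.3% lower of all genes, so the share that was higher is that of the background. Their median log2 ratio was 0.16, against 0.30 for all genes. Serpinh1, the collagen chaperone HSP47, stood at 624.5 CPM in Rhox5-led cells and 648 CPM in fibroblasts, a ratio of 0.964 (0.819 to 1.14). The prolyl 4-hydroxylase subunit P4hb stood at 215 and 187 CPM, and the prolyl isomerase Ppib at 443 and 396 CPM. Fkbp10 was 3.38-fold and P4ha2 3.13-fold higher in Rhox5-led cells, and P3h3 was 2.03-fold lower. Fibrillar collagen transcripts summed to 297 CPM in Rhox5-led cells and 6976 CPM in fibroblasts.

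Of the genes that process and crosslink collagen outside the cell, 5 of 7 were lower in Rhox5-led cells and 0 higher, beside 13.3% lower and 20.1% higher of all genes; those without a UMI in Rhox5-led cells passed the minimum through the fibroblasts. Loxl1, a lysyl oxidase of elastic fibers, and Adamts2, which removes the N-propeptide of fibrillar collagens, had no UMI there and were at least 773-fold and 760-fold lower. Pcolce2, an enhancer of C-propeptide removal, was 76.6-fold lower, the C-proteinase gene Bmp1 13.5-fold and Loxl2 4.18-fold. Pcolce was 161 CPM against 196 CPM in fibroblasts, a ratio of 0.823. Of 15 other matrix genes judged, 13 were lower and 0 higher against the same background. The lower ones included the microfibril genes Mfap5 and Fbn1, at 1517 and 1152 CPM in fibroblasts. Here too genes could pass the minimum through the fibroblasts, where they are high. Loxl1, Pcolce and Mfap5 were also among the markers that named the fibroblast cluster. The counts for both lists are therefore descriptions and add no support.

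Matrix receptors were mixed, and the 3 of 15 that were higher in Rhox5-led cells are near the 20.1% of all genes. They were the syndecan Sdc1 (9.80-fold), Itga6, a laminin-binding integrin chain (at least 8.88-fold) and the glypican Gpc1 (at least 2.98-fold). Lower were 6 of 15, a larger share than the 13.3% of all genes: Itga5, Itgav, Itgb5, Ddr2, Dag1 and Sdc2. The hyaluronan receptor Cd44 was 222 CPM in Rhox5-led cells and 435 CPM in fibroblasts. Within TEC, 9 of 16 folding genes were higher in Rhox5-led cells than in macrophages and 1 lower, beside 35.4% and 18.4% of all genes, with Serpinh1 96.6-fold and Plod2, a lysyl hydroxylase, 260-fold higher.

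Between macrophages, 28.4% of all genes were higher in TEC and 7.33% lower, and the calls in the same lists are given as single values beside that. Higher in TEC were Tgm2, a transglutaminase that crosslinks matrix (209 against 48.7 CPM, 4.28-fold, 3.12 to 6.04), Lair1, an inhibitory receptor for collagen (79.2 against 8.53 CPM, 9.29-fold, 4.46 to 23.3), the integrin chain Itgb5 (12.8-fold), the proteoglycan Vcan (33.4-fold, 9.19 to 277) and Tgfbi (1796 against 556 CPM, 3.23-fold). Tmem38b of the folding list (27.9 against 9.75 CPM) and Spon1 of the other matrix genes were also higher. Mrc1, an endocytic receptor that takes up collagen, was 2.41-fold lower in TEC, and Ecm1 was 4.03-fold lower. In all 1 of 8 folding genes, 1 of 1 processing genes, 2 of 10 receptors and 3 of 5 other matrix genes were higher, and 0, 0, 1 and 1 lower.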

How the data were processed

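Live ZSGreen+ cells of 2 libraries, 1 per group, were sorted and profiled with the 10x 3′ kit, per the labels' protocols; the name of the deposited table holds the unexplained word negs, and whether it holds that fraction is not settled here. Columns were given to samples by the words control (NEC) and tumor (TEC) alone. The deposited values are raw UMI counts per gene and cell. The submitters' processing notes name Seurat, STAR 2.5.1b, Cell Ranger 2.0.2 and the build mm10 without saying what each was used for, and no source used here gives the filters applied before deposit. NEC holds 1806 cells and 5228289 UMIs (lowest cell 1157), TEC 1000 cells and 16444540 UMIs (lowest cell 6376).

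Cells under 500 genes or 1000 UMIs or over 10% mitochondrial UMIs (5, all NEC) and Scrublet calls (7 NEC, 3 TEC) were left out, leaving 1794 and 997. Cells were clustered with scanpy 1.11.5 on 2000 variable genes less 33 matrix genes, 30 components, 15 neighbors and resolution 0.8. A cluster was named when at least 3 markers of a class were in 10% of its cells at 50 CPM and 2-fold above the rest. It stayed unnamed at a tie or when its 10 leading genes held more markers of another class. For B or plasma and T or NK, an equal number above 0 also left it unnamed. The rule on leading genes was settled after the clusters were seen. UMIs were summed per class and compared as CPM ratios with exact conditional Clopper-Pearson intervals (95%); a sum of 0 was set to 3 counts and gives a bound. CPM have exact Poisson and shares exact binomial intervals. All of them cover counting error only. Trimmed means came from edgeR 4.0.16.

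No p-value is given, since cells are not replicates. The size rule was also run on simulated Poisson sums per class, with no spread between cells, clusters or libraries. There it called 90.7% of 3-fold changes between macrophages (6099 genes), 97.1% within TEC (9404) and 97.6% within NEC (2143). Between Rhox5-led cells and fibroblasts it called 60.5% (8444). These rates cover counting error only. Named are the 10 members highest in each class, members called between macrophages and, in other lists, genes called there and most of the 3 highest. Further genes were named after their values were seen. Members and lists were chosen with earlier results of these data known. Of the 47 members 1 is counted in the sums and is not reported here by itself. Gene positions are from GENCODE M21 (GRCm38).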

Additional observations from a re-analysis of the deposited data

Results flagged for a closer look

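Some matrix genes stood above every compared class in 3 small or unrelated sets of cells that the comparisons did not use. The 7 fibroblast-like cells of TEC (66545 UMIs) had a matrix share of 2.39%, with cells between 0.943% and 5.53%. Their Col3a1 stood at 3336 CPM, Col1a1 at 2735 CPM and Bgn at 1728 CPM, against 2412, 1839 and 274 CPM in the fibroblasts of NEC. The top cell of each gene gave 37.8% of the Col3a1 UMIs, 45.6% of Col1a1 and 28.7% of Bgn. Without it these genes stood at 2375, 1656 and 1371 CPM, so Col3a1 and Col1a1 fell below the full NEC levels. The same removal left 1885, 1444 and 229 CPM in the fibroblasts of NEC. Other members were lower than in those fibroblasts, with Dcn at 3952 against 8098 CPM, Nid1 at 361 against 1308 CPM and Lum at 286 against 722 CPM. Col5a2 was 571 CPM, Col12a1, a fibril-associated collagen, 526 CPM, Col4a1 406 CPM and Fbln1 376 CPM. Col15a1 and Col8a1, both listed at 0 in NEC, stood at 60.1 CPM each. Rhox5 was found in 2 of the 7 cells at a class level of 195 CPM, and neutrophil markers summed to 6477 CPM; their part in these values was not tested.

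The 9 endothelial-like cells (3 of NEC, 6 of TEC; 82740 UMIs) held 12 of 12 endothelial markers. Matricellular and adhesive glycoproteins gave 46.7% of their matrix UMIs, nearly all from Sparc, basement membrane collagens 29.0%, laminins 9.94% and nidogens 3.38%. Sparc stood at 2804 CPM, Col4a1 at 955 CPM, Col4a2 at 809.8 CPM, Col18a1 at 338 CPM, Col15a1 at 133 CPM and Nid2 at 96.7 CPM. They had no UMI of Col1a1, Col1a2, Col3a1 or Dcn. Their ratio of Col4a1 to Col4a2 was 1.18 (0.841 to 1.66), and that of the Rhox5-led cells 2.30.

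Lamb3, the laminin β3 chain known from epithelial basement membranes, stood at 101.7 CPM in B or plasma-like cells of NEC, where 113 of 647 cells had a UMI (17.5%; 10.5% after thinning to 1000 UMIs). T or NK-like cells had 30.9 CPM in NEC and 21.4 CPM in TEC, and the 4 compared classes at most 4.35 CPM. The gene overlaps G0s2 and Hsd11b1 on the other strand, and their part in these counts was not tested.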

How the results depend on the processing

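No paired analysis was possible because each group is 1 library. Of the main values, 133 recomputed values kept their direction and side of the size rule and 13 moved; none reversed. The share of matrix UMIs in Rhox5-led cells became 0.157% with a stricter cell filter, 0.158% at resolution 0.4 and with the matrix genes kept in the clustering, and 0.148% without the top cell of each gene. The share in NEC macrophages became 0.172% with the stricter filter and 0.123% when leading genes were not weighed in naming, a setting chosen after seeing the data, as was leaving out each macrophage cluster. The share in TEC macrophages became 0.00940% with Scrublet calls kept, 0.0172% with the matrix genes kept and 0.0175% without top cells, and that in fibroblasts 2.56% without top cells. With no UMI minimum, 2 members were lower in TEC macrophages than in NEC macrophages, 2 lower in Rhox5-led cells than in TEC macrophages, and 36 higher in fibroblasts than in NEC macrophages. These counts stand without the share of all genes called under that setting. Members could also be judged through the class where they are high, so the counts are descriptions and add no support. The cause of these shifts was not tested, except that lifting the minimum judges more genes. Of single genes and medians 676 values stayed, 21 moved and 4 lost the call, for Fn1 and Col6a3 as given with those genes. The Fn1 ratio between macrophages lay between 0.0310 and 0.127 over these settings. With cells chosen by Rhox5 and the lack of Ptprc, 157 cells remained, 144 of them in the Rhox5-led cluster. Depth limits the fibroblast side most: 230068 UMIs in 73 cells leave Col18a1 with 6 UMIs and Col4a2 with 12.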
